A study of Mus musculus with 6 samples.

Results

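Transcript levels of 10 ETS transcription factor genes that act at or near the end of ERK signaling were followed through 6 mouse brain tumor libraries. The genes were chosen by name: the PEA3 members Etv1, Etv4 and Etv5, then Ets1 and Ets2, the ternary complex factors Elk1, Elk3 and Elk4, and Etv6 and Gabpa. All 10 were found among the 24537 gene rows of the deposited count table, and all 10 passed the filter on low counts. The tumors came from in utero electroporation, a method that delivers plasmid DNA to brain cells of a living embryo with pulses of current, in mice of the CD-1 IGS strain. Every tumor carried PdgfraD482V, a mutant of the receptor tyrosine kinase Pdgfra, and DNp53, a dominant-negative p53. In 3 libraries the titles add FOXR2, a forkhead factor, and the other 3 are titled Control. The promoters that drove the constructs, the age of the animals and whether each library came from its own animal were not stated in the labels, so p-values measure only the spread between these libraries.

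ETS factors share a winged helix DNA-binding domain that recognises a GGAA core. PEA3 factors are induced and activated when receptor tyrosine kinases signal through RAS and ERK, in part because ERK removes the repressor Capicua (Cic) from their promoters, and in the brain they are known from oligodendrocyte precursors and gliomas that depend on such receptors. ETS1 and ETS2 are phosphorylated by ERK, while the ternary complex factors sit beside serum response factor (Srf) at immediate early genes. ETV6 is a repressor and GABPA, which works with GABPB subunits, serves many housekeeping and mitochondrial genes.

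The titles and a small sheet filed beside the table name opposite groups for 6 of 6 libraries. Groups here follow the titles, and every direction turns round if the sheet is right. Foxr2 itself did not settle this, with 22, 1 and 7 counts under the title FOXR2 and 4, 10 and 7 under Control. Where 3 values are given for a title, here and throughout, they belong to replicates 1, 2 and 3 in that order. A construct from another species, or with other transcript ends, need not give reads on the mouse gene. Depth ran from 13429489 to 17927025 counts per library, and 3 counts, the floor used here, were worth 0.174 to 0.219 CPM (library-size-scaled counts with TMM factors), a floor that covers counting error only. FOXR2 replicate 2 stood apart, with summed microglia and macrophage markers of 1280 CPM against 4.82 to 14.2 in the other 5 libraries. FOXR2 replicates 1 and 3 and Control replicate 1 carried transcripts of 4 Y-linked genes (93.4 to 166 CPM in sum), and the other 3 libraries at most 0.174 CPM. Oligodendrocyte precursor markers summed to 3020 to 6320 CPM over the 6 libraries.

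None of the 10 genes differed between the titles past the threshold. The edgeR quasi-likelihood test called 0 of 10 at a Benjamini-Hochberg adjusted p under 0.05, where it called 2.29% of all 13101 genes tested (0.908% higher and 1.38% lower). At an unadjusted p under 0.05 it had 1 of the 10 (Ets1), against 24.9% of all genes. DESeq2 also called 0 of 10, against 13.8% of the genes it adjusted (6.91% higher), with 3 of 10 at an unadjusted p under 0.05 (20.3% of all genes), and limma-voom called 0 with 1 at an unadjusted p under 0.05. Fitted values lay above 0, toward the libraries titled FOXR2, for 7 of the 10, as for 50.7% of all genes. Their median log2 fold change was 0.65, beside 0.01 over all genes tested. The groups did not overlap in 2 of the 10, Ets1 (higher) and Gabpa (lower), where 30.3% of all genes did not overlap (13.1% higher and 17.2% lower).

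**Figure D1:**
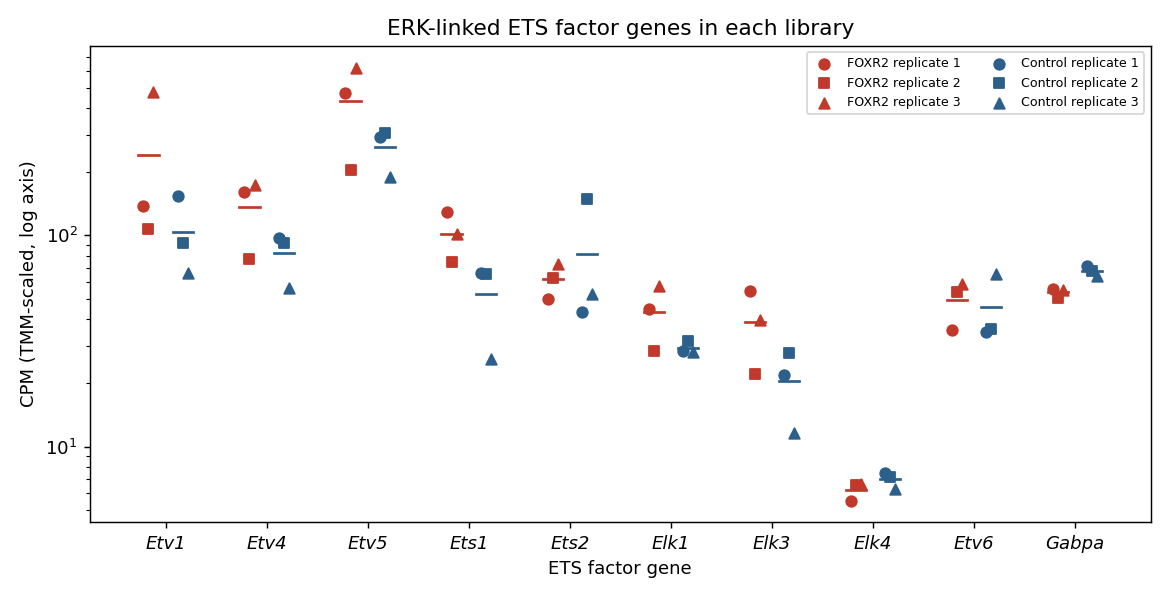
Level of each ETS factor gene (CPM, log axis) in the 3 libraries titled FOXR2 (red) and the 3 titled Control (blue); marker shapes give the replicate number and short lines the group means. Etv5 was the gene with the most counts in 6 of 6 libraries, FOXR2 replicate 2 sat inside the Control range for 8 of the 10 genes, and the 2 groups separate only for Ets1 and Gabpa.

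Etv5, a PEA3 factor, had the highest level. It stood at 472, 204 and 623 CPM under FOXR2 and at 291, 304 and 188 CPM under Control. FOXR2 replicates 1 and 3 lay above every Control library, while FOXR2 replicate 2 lay below Control replicates 1 and 2. The fitted log2 fold change (titled FOXR2 minus titled Control) was 0.73 ± 0.41 (SE; 95% interval -0.22 to 1.68; edgeR adjusted p = 0.307).

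Etv4, the founding PEA3 gene, followed the same order for the high libraries. Its levels were 161, 77.6 and 173 CPM under FOXR2 and 97.3, 92.4 and 56.6 CPM under Control. Again FOXR2 replicates 1 and 3 were highest, FOXR2 replicate 2 fell among the Control libraries and Control replicate 3 was lowest. The log2 fold change was 0.74 ± 0.35 (SE; 95% interval -0.08 to 1.56; edgeR adjusted p = 0.243).

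Etv1, the PEA3 gene also used in some neuron types, was set apart by 1 library. It measured 138, 107 and 475 CPM under FOXR2 and 154, 92.1 and 66.4 CPM under Control. FOXR2 replicate 3 lay far above every other library, and the remaining 5 libraries interleaved. Its fitted log2 fold change of 1.21 ± 0.60 (SE; 95% interval -0.19 to 2.61; edgeR adjusted p = 0.258) became 0.24 (adjusted p = 0.762) without FOXR2 replicate 3. The spread of log2(CPM + 0.5) within a title, pooled over the titles, was an SD of 0.92 for Etv1, 0.65 for Etv5 and 0.54 for Etv4, beside a median of 0.33 over all genes tested.

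Values of the PEA3 genes moved with individual libraries. Without FOXR2 replicate 2, the library with the microglia markers, the log2 fold changes were 1.56, 1.02 and 1.07 for Etv1, Etv4 and Etv5 (edgeR adjusted p = 0.154, 0.0972 and 0.0935). That library also lacked the Y-linked transcripts (0.127 CPM) that FOXR2 replicates 1 and 3 carried (166 and 93.4 CPM). Leaving it out therefore cannot tell the microglia markers apart from animal sex. Without FOXR2 replicate 3 the value of Etv5 was 0.37 (adjusted p = 0.652). In the fit without FOXR2 replicate 2, 6 of the 10 ETS genes had an unadjusted p under 0.05 and 0 were called, where 24.6% of all genes had such a p and 1.54% were called. Etv1 and Etv4 were higher in each of the 3 libraries with Y-linked transcripts than in any of the other 3. With animal sex as a covariate the log2 fold changes were 0.72, 0.42 and 0.32 for Etv1, Etv4 and Etv5, and none was called (adjusted p = 0.492, 0.509 and 0.701). With bulk RNA, fewer cells of a type and less RNA per cell cannot be told apart.

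Promoter windows from RefSeq (build GRCm38.p6; 250 bases before to 50 after an annotated start) are shown for a pair of PEA3 genes, because Capicua and ETS factors are known to act at such promoters. Windows matched 8 of the 10 genes, 12 windows in all. Etv5 and Etv1 each have 2 windows, and the one of each pair richer in the marked motifs was picked for printing. The printed Etv5 window lies at chr16:22438319-22438618 on the minus strand and the printed Etv1 window at chr12:38779832-38780131 on the plus strand, both 5′ to 3′. The other Etv5 window (chr16:22439521-22439820) holds 0 copies of the octamer below and 0 of GGAA, and the other Etv1 window (chr12:38783461-38783760) holds 1 GGAA against 5 in the printed one. Capitals mark the octamer TGAATGGG or its reverse complement in Etv5, and the ETS core GGAA or its reverse complement in Etv1.
Etv5: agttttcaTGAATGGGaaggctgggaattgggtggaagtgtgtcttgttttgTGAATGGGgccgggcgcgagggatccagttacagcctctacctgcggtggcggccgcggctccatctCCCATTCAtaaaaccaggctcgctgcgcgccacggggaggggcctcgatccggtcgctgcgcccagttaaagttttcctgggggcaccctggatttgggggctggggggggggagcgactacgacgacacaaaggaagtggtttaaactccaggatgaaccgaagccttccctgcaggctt
Etv1: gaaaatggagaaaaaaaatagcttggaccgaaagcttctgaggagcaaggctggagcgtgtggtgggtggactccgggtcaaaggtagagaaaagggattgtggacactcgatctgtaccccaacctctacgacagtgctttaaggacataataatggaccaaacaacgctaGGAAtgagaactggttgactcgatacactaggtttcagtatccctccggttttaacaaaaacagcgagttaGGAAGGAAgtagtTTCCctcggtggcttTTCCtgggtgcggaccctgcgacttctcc
The octamer TGAATGGG, which resembles the Capicua sites TGAATGAA and TGAATGGA, was searched for only after the sequence had been seen. It occurs 3 times in the printed Etv5 window and 0 times in the other. The printed one is the 1 window of 32851 to hold the octamer that often. Octamer and window were picked with these copies in view, so that count describes the choice and is no test. Of all windows 1.08% hold it at least once. TGAATGAA and TGAATGGA were in 0 of the 12 windows of the ETS genes and in 1.30% and 1.21% of all windows. The GGAA core was in 11 of the 12, all but the other Etv5 window, and 96.0% of all windows have it, and the longer ETS site CCGGAAGT was in 1 of the 12 (Elk4) against 3.89% of all. A CArG box, the Srf site, was in 0 of the 12 and in 1.63% of all windows. Every motif was searched on both strands, and overlapping matches were counted. A match describes letters only and is not evidence of binding.

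Per kilobase of exon, which allows genes to be compared, Etv5 averaged 84.5 ± 41.2 CPM per kb over the 6 libraries, Etv4 35.3 ± 15.0 and Etv1 13.0 ± 11.4 (SD, n = 6). Etv5 exceeded Etv4 and Etv4 exceeded Etv1 in 6 of 6 libraries. Exon length came from GENCODE M21, and with the longest coding transcript in its place Etv1 averaged 26.2 CPM per kb and lay below Etv4 in 5 of 6. Among PEA3 transcripts scaled by exon length, Etv5 made up 60.0% to 66.9%, Etv4 22.9% to 30.2% and Etv1 5.87% to 14.7% of the sum in a library. These shares depend on the length used, and they were not computed with the longest coding transcript. The top Etv1 share belonged to FOXR2 replicate 3. The PEA3 sum itself was 177, 82.7 and 243 CPM per kb under FOXR2 and 114, 111 and 68.9 under Control. The share of Etv5 varied less between libraries than the sum did.

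**Figure D2:**
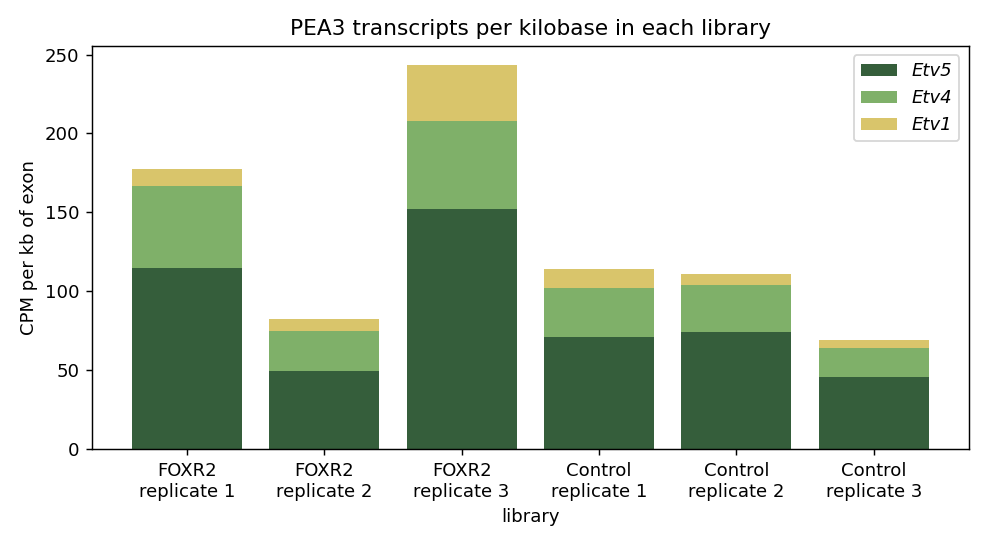
Stacked bars of Etv5, Etv4 and Etv1 in each library, in CPM per kilobase of exon. The sum ran from 68.9 in Control replicate 3 to 243 in FOXR2 replicate 3, with Etv5 the largest segment in 6 of 6 libraries.

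Below the PEA3 genes the levels lay close together. Ets2, Gabpa, Ets1, Etv6, Elk1 and Elk3 averaged 12.4, 10.7, 9.12, 7.95, 6.78 and 6.49 CPM per kb. From Etv1 down to Elk3, each gene exceeded the next in 3 or 4 of 6 libraries, so neighbours in this order did not differ beyond their spread. With the longest coding transcript as the length the order changed, to Ets2 18.4, Ets1 15.2, Gabpa 12.2, Elk1 10.3, Etv6 8.33 and Elk3 7.01 CPM per kb, and the neighbours named above exceeded the next in 2 to 5 of 6 libraries. Elk4 was lowest, at 1.03 ± 0.108 CPM per kb (SD, n = 6), and lay below Elk3 in 6 of 6.

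Ets1, an activator that ERK phosphorylates, was the 1 member with an unadjusted p under 0.05. It stood at 129, 74.7 and 102 CPM under FOXR2 and at 66.3, 65.6 and 26.1 CPM under Control. The titles did not overlap, although FOXR2 replicate 2 was close to Control replicates 1 and 2. The log2 fold change was 0.95 ± 0.38 (SE; 95% interval 0.05 to 1.85; unadjusted p = 0.041; edgeR adjusted p = 0.184), and without Control replicate 3 it was 0.62 (adjusted p = 0.245).

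Ets1 is also known from endothelium and lymphocytes. Of 12 endothelial markers 4 stayed under 1 CPM in every library, and Pecam1 and Cdh5 reached at most 2.02 and 1.52 CPM, in FOXR2 replicate 2. Vwf was higher in every library titled FOXR2, at 3.59, 6.26 and 3.14 CPM against 1.14, 0.775 and 2.38 CPM under Control (log2 fold change 1.59; unadjusted p = 0.0227; edgeR adjusted p = 0.14). Flt1 had 12.2, 5.31 and 0.219 CPM under FOXR2 against 1.44, 0.715 and 0.639 CPM under Control, highest in FOXR2 replicate 1, as Ets1 was (log2 fold change 2.66; unadjusted p = 0.0485; edgeR adjusted p = 0.198; 1.57 without FOXR2 replicate 1). Egfl7 lay the other way, lower in every library titled FOXR2 (log2 fold change -1.10; edgeR adjusted p = 0.13; -0.67 without Control replicate 3). The endothelial sum, to which Egfl7 and Ly6c1 gave up to 28.9 and 23.6 CPM, was 31.3 to 35.7 CPM in the libraries titled FOXR2 and 22.1 to 39.4 in those titled Control, over groups that overlapped. T cell markers summed to 1.04 to 7.15 and 4.98 to 5.19 CPM, mostly from Lck except in FOXR2 replicate 2, where Cd4 (3.35 CPM) stood beside it (3.29 CPM), with 5 of the 7 in the table under 1 CPM throughout and Cd3e at no more than 0.0633 CPM. Pericyte and fibroblast markers summed to 33.5 CPM in FOXR2 replicate 2 and to 0.720 to 2.41 in the others.

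Ets2, the close relative of Ets1, did not share its pattern. It measured 50, 62.9 and 73.1 CPM under FOXR2 and 43.2, 148 and 52.5 CPM under Control. Control replicate 2 was well above the rest, and the log2 fold change of -0.39 ± 0.46 (SE; edgeR adjusted p = 0.641) turned to 0.38 without that library (adjusted p = 0.46).

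Among the ternary complex factors, Elk3, which represses until it is phosphorylated, came nearest to Ets1 in pattern. Its levels were 54.4, 22.1 and 39.6 CPM under FOXR2 and 21.9, 27.6 and 11.6 CPM under Control. FOXR2 replicates 1 and 3 were highest and FOXR2 replicate 2 lay inside the Control range. The log2 fold change was 0.93 ± 0.42 (SE; 95% interval -0.05 to 1.91; edgeR adjusted p = 0.223), and 0.60 without FOXR2 replicate 1 (adjusted p = 0.462).

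Elk1, the activating ternary complex factor and an X-linked gene, had 45.0, 28.3 and 57.6 CPM under FOXR2 against 28.5, 31.5 and 28.1 under Control. The Control libraries were nearly level, and FOXR2 replicate 2 sat with them. Its log2 fold change was 0.57 ± 0.27 (SE; 95% interval -0.07 to 1.21; edgeR adjusted p = 0.245), 0.32 without FOXR2 replicate 3 (adjusted p = 0.543) and 0.39 in a fit that took sex into account (adjusted p = 0.537). Elk4, the third of these factors, ranged from 5.55 to 6.64 CPM in the libraries titled FOXR2 and from 6.27 to 7.50 in those titled Control, with a log2 fold change of -0.16 ± 0.29 (SE; adjusted p = 0.765).

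Etv6, the ETS repressor, measured 35.6, 54.0 and 59.0 CPM under FOXR2 and 35.0, 36.0 and 65.7 CPM under Control. The highest and the lowest library were both titled Control, and the log2 fold change was 0.12 ± 0.32 (SE; edgeR adjusted p = 0.842), with a sign that depended on which library was left out.

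Gabpa, the DNA-binding subunit of the GABP complex, lay the other way and varied least. It stood at 55.9, 50.5 and 55.1 CPM under FOXR2 and at 71.7, 68.0 and 64.2 CPM under Control. Every library titled FOXR2 was below every library titled Control. The log2 fold change was -0.34 ± 0.16 (SE; 95% interval -0.70 to 0.03; edgeR adjusted p = 0.234), with a pooled SD within a title of 0.08 on the log2 scale. Its partner genes Gabpb1 and Gabpb2 had log2 fold changes of 0.10 and -0.10.

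**Figure D3:**
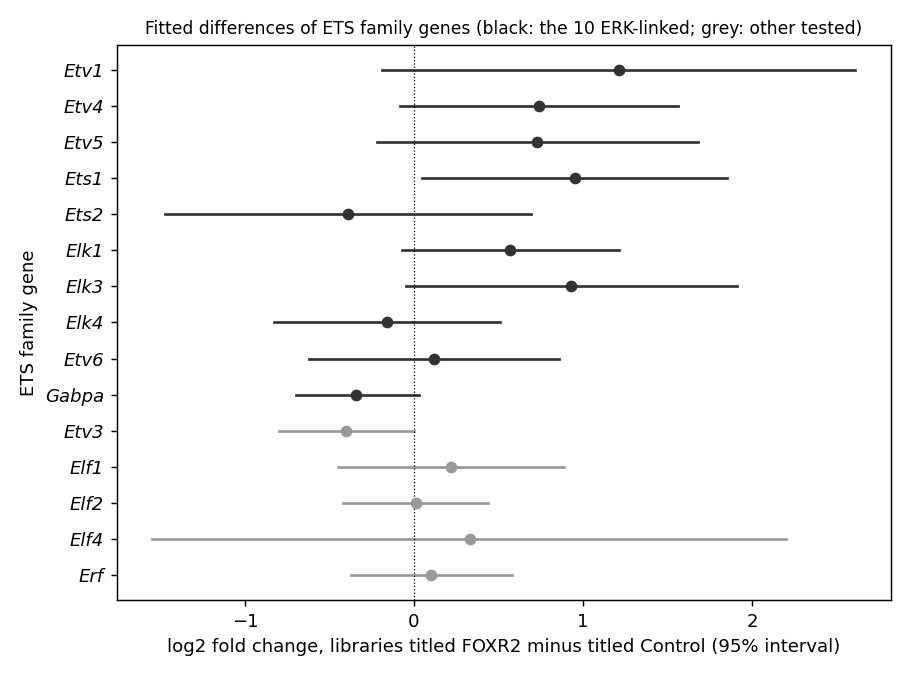
Log2 fold changes (titled FOXR2 minus titled Control) with 95% intervals from the edgeR fit, for the 10 ERK-linked ETS genes (black) and the 5 other ETS genes that passed the filter (grey). The interval of Ets1 runs from 0.05 to 1.85 and lies above 0; no gene had an adjusted p under 0.05.

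Of 16 other ETS genes in the table, 5 passed the filter and 0 were called, with a median log2 fold change of 0.10. Etv3, a repressor of the family, stood at 28.6, 28.9 and 25.9 CPM under FOXR2 and 35.4, 38.3 and 36.5 under Control, a log2 fold change of -0.40 ± 0.17 (SE; edgeR adjusted p = 0.197). Like Gabpa it was lower in every library titled FOXR2. Elf1 and the ERK-controlled repressor Erf had log2 fold changes of 0.22 and 0.10. Another 8 genes stayed under 1 CPM in every library. Spi1, the master factor of macrophages, measured 14.9 CPM in FOXR2 replicate 2 and at most 0.12 CPM elsewhere. Fli1 and Erg, factors of endothelial and blood cells, were likewise highest there, at 4.62 and 1.27 CPM.

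Among regulators of PEA3 factors, a fixed list of 9 genes, 0 were called (median log2 fold change 0.38, 5 above 0). An unadjusted edgeR p under 0.05 was found for 5 of them, and for 24.9% of all genes tested. Cic, the repressor of PEA3 genes, stood at 171, 154 and 178 CPM under FOXR2 and at 126, 128 and 132 CPM under Control. It was higher in every library titled FOXR2, with a log2 fold change of 0.38 ± 0.16 (SE; edgeR adjusted p = 0.19). Atxn1, whose product is a partner of Capicua, had 15.9, 6.14 and 8.68 CPM against 1.98, 3.04 and 2.27 CPM (log2 fold change 2.07 ± 0.45, SE; edgeR adjusted p = 0.0589). Tribbles pseudokinases are adaptors of the ubiquitin ligase COP1, which targets PEA3 proteins for degradation. Trib2 measured 410, 208 and 620 CPM under FOXR2 against 117, 150 and 104 CPM under Control, a log2 fold change of 1.74 ± 0.39 (SE; adjusted p = 0.0616). Trib1 had a log2 fold change of 0.78 ± 0.17 (SE; adjusted p = 0.0615). Det1, whose product works with COP1 in the ligase, lay the other way, at 6.46, 6.77 and 5.40 CPM under FOXR2 against 13.3, 14.7 and 9.82 CPM under Control (log2 fold change -1.02 ± 0.29, SE; adjusted p = 0.0952). Cop1 itself, listed as Rfwd2, had a log2 fold change of -0.19 ± 0.16 (SE; adjusted p = 0.504). DESeq2, which called 13.8% of the genes it adjusted, called Atxn1, Trib1 and Trib2 higher and Det1 lower (adjusted p = 0.000803, 0.00545, 0.000498 and 0.0236). Without FOXR2 replicate 2 edgeR called Trib2 (adjusted p = 0.0353), in a fit that called 1.54% of all genes.

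Output genes of ERK signaling that Capicua and PEA3 factors share were measured by 18 genes, of which 17 were tested. Among them 1 was called higher and 0 lower, against 0.908% and 1.38% of all genes tested. Fitted values lay above 0 for 13 of them, and the median log2 fold change was 0.66. The called gene was Phlda1, at 142, 168 and 155 CPM under FOXR2 against 57.3, 78.1 and 41.2 CPM under Control (log2 fold change 1.40 ± 0.26, SE; edgeR adjusted p = 0.0462). It lost the call without each library in turn (edgeR adjusted p = 0.0697 to 0.138). The call was also lost with animal sex as a covariate and with the replicate number as a block (edgeR adjusted p = 0.122 and 0.118). Phlda1 kept it with DESeq2 (adjusted p = 0.000134), limma-voom (0.0454) and edgeR with RLE scaling, total-count scaling or no filter (0.0481 to 0.0498). Its log2 fold change was 1.19 to 1.66 over the 13 alternatives. Fits without 1 library called 1 to 123 genes higher over the whole table. Epha4, an ephrin receptor, and Myc had log2 fold changes of 2.29 ± 0.52 and 0.74 ± 0.22 (SE; edgeR adjusted p = 0.0648 and 0.102).

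Spry4, a feedback inhibitor of receptor signaling, measured 100, 36.4 and 89.1 CPM under FOXR2 and 46.7, 54.1 and 36.7 CPM under Control. Dusp6, a phosphatase that inactivates ERK, had 150.0, 70.7 and 132 CPM against 60.4, 102 and 44.8 CPM. In both, FOXR2 replicates 1 and 3 were highest. FOXR2 replicate 2 lay within the Control range for Dusp6 and was the lowest of all libraries for Spry4, just below Control replicate 3. Their log2 fold changes were 0.72 ± 0.37 and 0.77 ± 0.38 (SE; edgeR adjusted p = 0.281 and 0.262). Spry4 had 0.46 without FOXR2 replicate 1 and 0.35 in the fit with sex, and Dusp6 had 1.17 without Control replicate 2 (adjusted p = 0.541, 0.669 and 0.229).

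The other lists gave 0 calls. The 20 genes of the RAS-ERK cascade had a median log2 fold change of 0.09, with the adaptor gene Shc1 at -0.69 (edgeR adjusted p = 0.0952) and the ERK gene Mapk3 at -0.40. The 9 immediate early targets of Srf and ternary complex factors had a median of 0.59, and Egr2, Fos and Nr4a1 had log2 fold changes of 1.52, 0.79 and 0.64 (adjusted p = 0.198, 0.365 and 0.258). Their highest levels were in FOXR2 replicate 2, at 64.0, 265 and 107 CPM. Without that library the log2 fold changes were 0.57, 0.10 and 0.30. Srf stood at 0.04, and its coactivator genes Mkl1 and Mkl2 (now Mrtfa and Mrtfb) at 0.57 and 0.68.

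**Figure D4:**
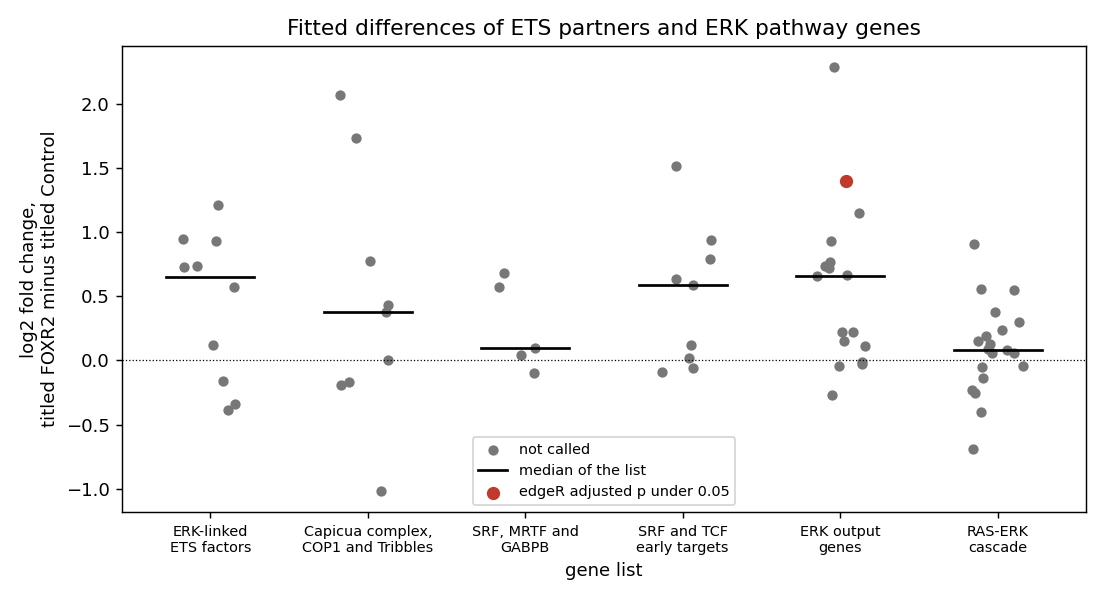
Log2 fold changes (titled FOXR2 minus titled Control) of the tested genes of 6 lists, 1 point per gene, with the median of each list as a bar. Phlda1 is the 1 gene with an edgeR adjusted p under 0.05 (red), and list medians run from 0.09 in the RAS-ERK cascade to 0.66 in the ERK outputs.

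Likeness of pattern was measured as the root mean square difference of log2(CPM + 0.5), centred per gene over the 6 libraries, as a description of these libraries only. Of 12419 named genes tested, those nearest to Etv5 were Robo1, an axon guidance receptor (0.0655), C1galt1, a glycosyltransferase (0.139), and Etv4 (0.148), where the median gene differed by 0.731. Etv4 was nearest to C1galt1 and the phosphodiesterase gene Pde1b (0.103 each) and to Rbms2 (0.117), and Etv5 ranked 6. Etv1 had other neighbours, Cdc42ep1 (0.227), Gt(ROSA)26Sor (0.232) and Antxr1 (0.249), with Etv5 at rank 114 and Etv4 at rank 190. Nearest to Ets1 were Ccnd1, the G1 cyclin (0.114), Arhgap21 (0.119) and the ephrin gene Efnb2 (0.135), and Elk3 ranked 11.

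From the fixed lists, Spry4 ranked 7 and Dusp6 125 in likeness to Etv5. Of the 17 tested ERK output genes 13 were nearer to Etv5 than the median gene, and of the 9 immediate early targets 0 were. The same counts were 14 and 0 for Etv4, and also for Etv1 with its other neighbours. The measure is not scaled for spread, so a gene that varies widely lies far from most genes. These counts therefore cannot tell a shared pattern from a small spread. All these genes were read in the same 6 libraries, whose depth, Y-linked transcripts and microglia markers differed as given above.

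**Figure D5:**
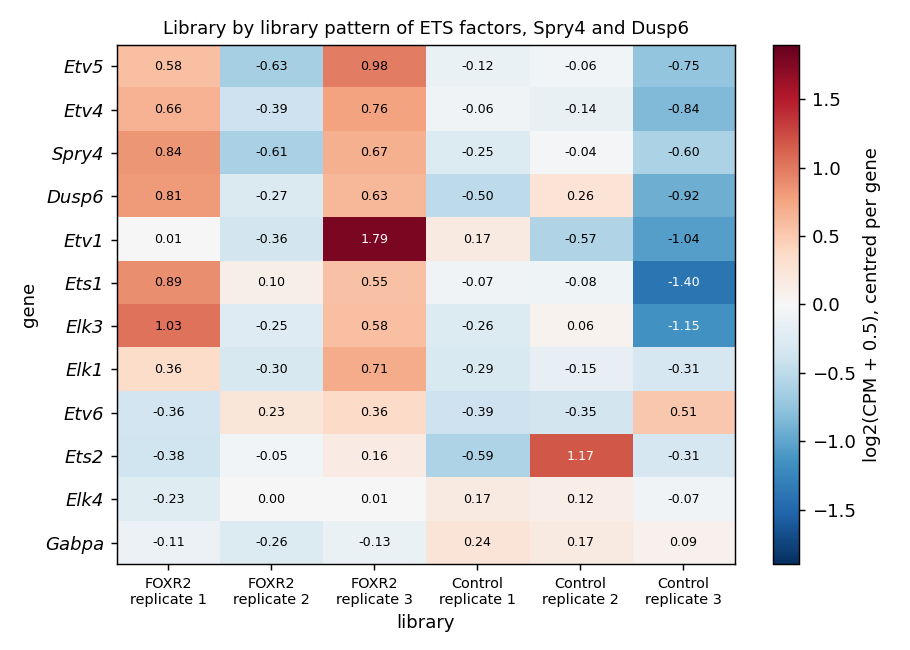
Heat map of log2(CPM + 0.5), centred per gene over the 6 libraries, for the 10 ETS genes with Spry4 and Dusp6; colour and number give the difference from the gene's own mean. Etv5, Etv4, Spry4 and Dusp6 are above their mean in FOXR2 replicates 1 and 3 and below it in FOXR2 replicate 2 and Control replicate 3.

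Summed markers of neurons and of oligodendrocyte precursors did not overlap between the titles. The 8 neuron markers summed to 899 to 1120 CPM in the libraries titled FOXR2 and 271 to 328 in those titled Control. Of these 8 genes 3 were called higher, against 0.908% of all genes tested. Oligodendrocyte precursor markers summed to 4600 to 6320 and 3020 to 4260 CPM, with 0 of 10 called. Singly, 1 of these 10 genes (Ptprz1) did not overlap between the titles, against 30.3% of all genes tested. Sox10 and Gpr17 were fitted below 0 (log2 fold changes -0.19 and -0.45), so the sums do not stand for every marker. Mature oligodendrocyte markers summed to 217, 5160 and 1430 CPM under FOXR2 and 1690, 284 and 3880 under Control. Astrocyte markers summed to 617 to 1820 and 603 to 835 CPM, and Aldoc gave 1150 CPM of the highest sum, in FOXR2 replicate 3. Of these 8 genes 1 was called higher (Slc1a2), against 0.908% of all genes tested. Another 3 were fitted below 0, among them Aldh1l1 at -1.71 and Gja1 at -1.95. The part of these markers in the values of the ETS genes was not tested.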

How the data were processed

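RNA-seq of 6 mouse brain tumor samples was analysed, 3 titled FOXR2 and 3 titled Control. Values in the deposited table are raw read counts, 1 row per gene symbol. The tools TopHat and DESeq2, with no version, and the build hg19, which is human while the gene symbols are of mouse form, come from the submitters' processing notes. How reads were counted, on which annotation and with which strand setting was not given in the sources used here, so reads of overlapping genes cannot be assigned. Libraries were poly(A)-selected and made with a directional kit, per the labels' protocols.

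Counts were fitted over all genes with edgeR 4.0.16 in R 4.3.3: filterByExpr with a count minimum of 10, TMM factors (0.961 to 1.03), quasi-likelihood F test, no covariate, Benjamini-Hochberg adjustment, calls at an adjusted p under 0.05. Log2 fold changes used a prior count of 0.125. CPM is TMM-scaled. Genes named beyond the 10 were the 3 smallest adjusted p of each pathway list, Cic, Srf, Mapk3, Spry4, Dusp6, Spi1, Fli1 and Erg, and the nearest patterns of Etv1, Etv4, Etv5 and Ets1. Some genes that this rule names are not reported here. Gabpb2, Det1 and Cop1 were named after their values were seen, as were single markers. The members and lists were chosen with earlier results of these data known. Older symbols (Rfwd2, Mkl1, Mkl2) were matched through RefSeq. The fit was tested on simulated data. Alternatives tried were DESeq2 1.42.0, limma-voom (limma 3.58.1), RLE or total-count scaling, no filter, a replicate block, and leaving out each library. Animal sex, read from Xist and 4 Y-linked genes, was added as a covariate after seeing the data.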

Additional observations from a re-analysis of the deposited data

How the results depend on the processing

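No ETS gene was called under any of the 13 alternatives, and 8 of the 10 kept the sign of their fold change in all of them. Leaving out 1 library in turn gave log2 fold changes of -0.70 to 0.38 for Ets2 (above 0 without Control replicate 2) and -0.04 to 0.48 for Etv6 (below 0 without Control replicate 1, Control replicate 2 or FOXR2 replicate 3). Of 39 other genes followed through the alternatives 35 kept their sign. The rest ranged from -0.11 to 0.24 for Srf, below 0 without Control replicate 3 or FOXR2 replicate 2, and, turning without Control replicate 3, from -0.06 to 0.19 for Erf, -0.07 to 0.24 for Gabpb1 and -0.67 to 0.26 for Mapk3. Causes were not tested.

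Counts over all genes were less stable. Against 119 genes called higher and 181 lower, DESeq2 called 947 in each direction, total-count scaling 105 and 119, and the sex covariate 7 and 0 (2398 genes had an unadjusted p under 0.05). Leaving out 1 library gave 1 to 123 higher and 0 to 82 lower, with 2241 to 3268 genes at an unadjusted p under 0.05, and the cause was not tested. With the replicate number as a block edgeR called 0 higher and 0 lower (2652 at an unadjusted p under 0.05). Deviations from the group means correlated at -0.0161, -0.241 and -0.0104 for numbers 1, 2 and 3. Of 6 libraries 0 matched best with their own number. Large differences between single libraries could hide a shared origin, so this check cannot tell whether the numbers pair the libraries. Elk4, the ETS gene with the fewest counts, had 85 to 125 per library.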
